A study of Mus musculus with 10 samples.

Results

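The carnitine shuttle and its malonyl-CoA brake were followed in mouse colon organoids through 10 genes listed by their function: Slc22a5, Aldh9a1, Tmlhe, Cpt1a, Slc25a20, Cpt2, Crat, Crot, Acacb and Mlycd. A row of the gene table was taken for each symbol, which gave 9 genes of 56748. Tmlhe, the enzyme of the first step of carnitine synthesis, was not analysed here.

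Colon organoids are cultures of intestinal epithelium. They received 100 µM WY-14643, an agonist of the fatty acid receptor PPARα, or its vehicle, which the labels do not specify, from day 3 after passaging for 2 days, and polyadenylated RNA was then sequenced. The WY-14643 group holds 5 libraries (replicates 6 to 10) and the vehicle group holds 5 (replicates 1 to 5). The labels give both groups the same source and name no genotype, strain, age, animal, organoid line or day, so the replicates may be technical and the p-values reflect only their spread. No group lacked PPARα, and its gene Ppara had 0.336 ± 0.177 FPKM in WY-14643 libraries and 0.298 ± 0.174 FPKM in vehicle libraries (SD, n = 5 each). Ppara averaged less than the filter of 0.5 FPKM and was not tested. The other PPAR genes were higher: Ppard had 14.7 ± 1.79 FPKM with WY-14643 and 14.0 ± 2.05 FPKM with vehicle. Pparg had 22.9 ± 8.32 and 28.9 ± 16.7 FPKM in the same order. Which receptor the agonist acted through was not tested.

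Long-chain fatty acids cross the inner mitochondrial membrane as carnitine esters. Cpt1a makes the ester at the outer membrane, the carrier Slc25a20 exchanges it for free carnitine, and Cpt2 remakes the acyl-CoA in the matrix, where β-oxidation begins. Malonyl-CoA, made at the outer membrane by the acetyl-CoA carboxylase Acacb and removed by the decarboxylase Mlycd, inhibits Cpt1a and so brakes the shuttle.

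All 9 genes had a higher mean in WY-14643 libraries, where 47.1% of all genes tested did. By mean FPKM, the 3 genes of the shuttle and Aldh9a1, the gene of an enzyme of carnitine synthesis, were between 1.55 and 2.30 times as high with WY-14643. Acacb, which is nearly silent with vehicle, was 11.2 times as high. The other 4 genes, Slc22a5, Crat, Crot and Mlycd, had ratios of 1.17 to 1.27. The median log2 fold change of the 9 genes was 0.59, against -0.0061 over the 13607 genes tested. Levels are in FPKM, which divides fragments by gene length and by a factor for the library, so that genes of different length can be set side by side. Fold changes are differences of log2(FPKM + 1), which understates the change of low genes such as Acacb.

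The comparison was made by limma in a pair of fits, both adjusted by Benjamini-Hochberg over all 13607 genes with a threshold of 0.05. Without pairs, 0 of 9 genes passed, and over all genes 0% passed as higher and 0% as lower, while 205 had an unadjusted p under 0.05 and voom on the reads also called 0. With each WY-14643 library matched to the vehicle library that deviated with it (replicates 6 with 1, 7 with 2, 8 with 3, 9 with 4 and 10 with 5), 5 of 9 genes passed as higher, Cpt1a, Slc25a20, Cpt2, Aldh9a1 and Acacb, where 0.287% of all genes did. None of the 9 passed as lower, where 0.0294% of all genes did. No label gives this matching, which was read from the correlations and the library numbers, so the verb "rose" is used below for the matched fit alone. The 5 calls became 3 without pair 6 and 1, 1 (Cpt1a) without pair 7 and 2, 0 without pair 8 and 3, 3 without pair 9 and 4, and 0 with no filter on low genes. Without regard to pairs, the lowest WY-14643 value exceeded the highest vehicle value for 4 of 9 genes (Cpt1a, Cpt2, Aldh9a1 and Acacb), where 0.243% of all genes did so and 0.11% did so in the other direction. Acacb passed the filter of 0.5 FPKM only through the WY-14643 group (mean 1.59 FPKM, against 0.143 FPKM with vehicle). A gene kept in this way leans toward a higher call, so Acacb adds no support to the counts of the 9 genes that include it.

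**Figure D1:**
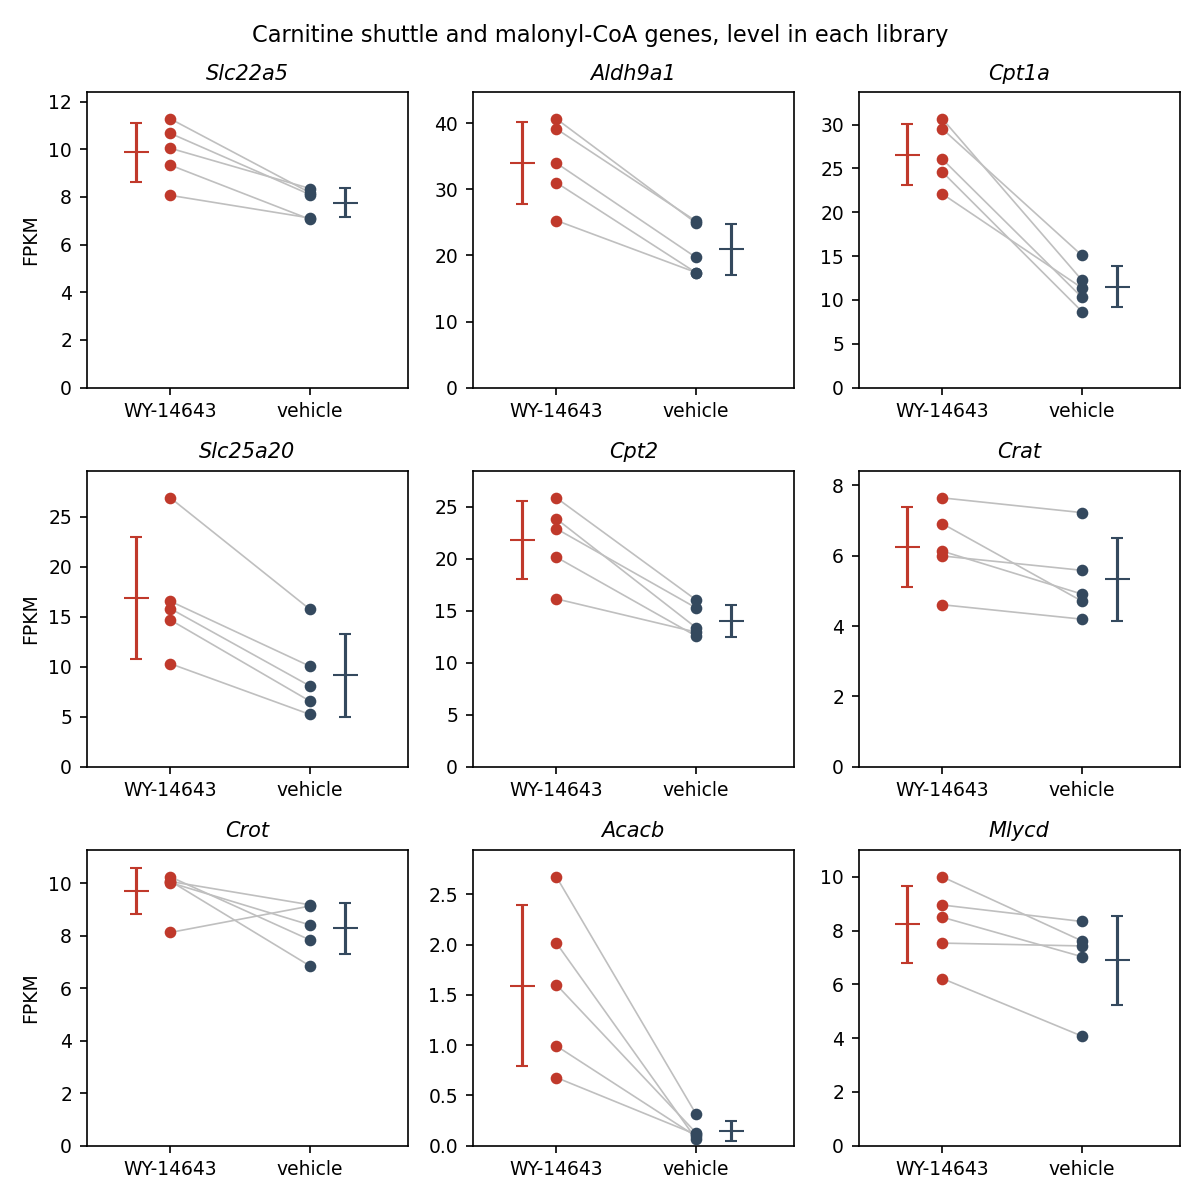
Level of each gene in FPKM (vertical axes from 0) in the 5 WY-14643 libraries (red, left) and the 5 vehicle libraries (dark, right); grey lines join matched libraries, and crosses with bars are mean ± SD. Cpt1a, Cpt2, Aldh9a1 and Acacb show no overlap between groups, and the lines of Slc25a20 run nearly parallel although its groups overlap.

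Carnitine enters cells through Slc22a5, the high-affinity sodium-dependent carnitine transporter of the plasma membrane (chr11:53755368-53782486 of mm39, minus strand). Its level was 9.33, 11.3, 8.06, 10.7 and 10.04 FPKM in WY-14643 replicates 6 to 10, against 7.06, 8.17, 7.12, 8.10 and 8.35 FPKM in vehicle replicates 1 to 5. Only WY-14643 replicate 8 fell within the range of the vehicle libraries. The log2 fold change was 0.31 with a standard error of 0.098 without pairs (adjusted p nearly 1) and 0.052 in the matched fit (adjusted p = 0.0830), so it did not pass, although it was higher in 5 of 5 pairs.

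Aldh9a1 oxidises trimethylaminobutyraldehyde, the step before the last of carnitine synthesis (chr1:167177560-167196101, plus strand). It was the most abundant of the 9 genes in both groups, with 34.0, 40.7, 39.2, 31.0 and 25.3 FPKM in WY-14643 replicates 6 to 10 and 19.7, 24.9, 25.2, 17.4 and 17.4 FPKM in vehicle replicates 1 to 5. The groups were separated by the narrow gap between 25.3 FPKM in WY-14643 replicate 10 and 25.2 FPKM in vehicle replicate 3. Within pairs the ratio was more even, 1.72, 1.63, 1.55, 1.78 and 1.45. Aldh9a1 rose by 0.67 on the log2 scale (SE 0.052, adjusted p = 0.0103 in the matched fit; SE 0.16, adjusted p = 0.575 without pairs). The call was lost without the pair of replicates 7 and 2 (adjusted p = 0.0905) or 8 and 3 (0.0726).

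The enzyme after Aldh9a1, Bbox1, which finishes carnitine synthesis and is known from liver and kidney, was nearly absent, with 0 to 0.0541 FPKM in WY-14643 libraries and was listed at 0 in every vehicle library. Of the list of 9 other genes for carnitine acyltransferases, transport and synthesis, 4 passed the filter on low genes. In either fit 0 were called, where the matched fit passed 0.287% of all genes as higher and 0.0294% as lower. At such shares, 0 calls say little about these 4. These 4 were the transporters Slc22a21 (3.15 ± 0.811 FPKM with WY-14643 and 2.47 ± 0.546 FPKM with vehicle), Slc22a4 (2.49 ± 0.991 and 2.30 ± 1.42 FPKM), Slc6a14 (0.886 ± 0.715 and 1.15 ± 0.809 FPKM) and Slc25a29 (0.440 ± 0.198 and 0.611 ± 0.169 FPKM), each given with WY-14643 before vehicle (SD, n = 5 each). Their median log2 fold change was -0.018. Slc22a5, Slc22a21 and Slc22a4 are near relatives, and how reads that match several genes were counted is not given in the sources used here.

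Cpt1a is the liver-type carnitine palmitoyltransferase of the outer membrane, the step that malonyl-CoA inhibits (chr19:3372334-3435733, plus strand). It was listed at 24.6, 29.5, 30.6, 26.0 and 22.1 FPKM in WY-14643 replicates 6 to 10, against 8.68, 15.1, 12.3, 10.3 and 11.4 FPKM in vehicle replicates 1 to 5. The groups did not overlap, with 22.1 FPKM in the lowest WY-14643 library and 15.1 FPKM in the highest vehicle library, and the ratio within pairs was 1.94 to 2.83. Cpt1a rose by 1.15 on the log2 scale (SE 0.084, adjusted p = 0.01004 in the matched fit). Without pairs its standard error was 0.14, and its adjusted p of 0.0917 was the smallest of all 13607 genes. It passed without pairs when vehicle replicate 2, the highest of its group, was left out (adjusted p = 0.0355), and in the matched fit it did not pass without the pair of replicates 8 and 3 (adjusted p = 0.0726).

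The other Cpt1 genes were close to 0. Cpt1b, the muscle type, had 0.155 ± 0.0751 FPKM with WY-14643 and 0.0716 ± 0.0319 FPKM with vehicle, and Cpt1c, the brain type, had 0.0707 ± 0.0218 and 0.0653 ± 0.0441 FPKM in the same order (SD, n = 5 each). Cpt1a therefore made up 98.9% to 99.4% of the summed Cpt1 FPKM in WY-14643 libraries and 98.7% to 99.1% in vehicle libraries.

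Slc25a20, the carnitine-acylcarnitine carrier of the inner membrane (chr9:108539287-108561840, plus strand), had the widest spread of the shuttle within a group. Its level was 10.3, 26.9, 15.8, 14.7 and 16.5 FPKM in WY-14643 replicates 6 to 10, against 5.22, 15.7, 8.06, 6.55 and 10.04 FPKM in vehicle replicates 1 to 5. The groups overlapped, since vehicle replicate 2 exceeded WY-14643 replicates 6 and 9. The lowest library of each group belonged to one pair and the highest to another, and the ratio within pairs was 1.97, 1.71, 1.96, 2.24 and 1.65. The residual SD was 0.51 on the log2 scale without pairs and 0.11 from the differences within pairs. Slc25a20 rose by 0.84 in the matched fit (SE 0.062, adjusted p = 0.01004), whereas without pairs the same difference had a standard error of 0.29 and an adjusted p of nearly 1. The matched call was lost without the pair of replicates 7 and 2 (adjusted p = 0.0601) or 8 and 3 (0.0726).

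Cpt2, the acyltransferase on the matrix side (chr4:107761178-107780807, minus strand), had 25.9, 23.8, 22.9, 20.2 and 16.1 FPKM in WY-14643 replicates 6 to 10. It had 16.1, 13.4, 15.3, 12.6 and 12.95 FPKM in vehicle replicates 1 to 5. The lowest WY-14643 library (16.15 FPKM, replicate 10) and the highest vehicle library (16.05 FPKM, replicate 1) nearly touched. Cpt2 rose by 0.59 on the log2 scale (SE 0.071, adjusted p = 0.0368 in the matched fit; SE 0.13, adjusted p = 0.419 without pairs). This call was lost when any 1 of the pairs other than 10 and 5 was left out (adjusted p between 0.0715 and 0.178).

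Summed over Cpt1a, Slc25a20 and Cpt2, the shuttle had 65.2 ± 9.88 FPKM in WY-14643 libraries and 34.7 ± 5.95 FPKM in vehicle libraries (SD, n = 5 each). Cpt1a and Cpt2 did not move in proportion. Cpt1a was above Cpt2 in 4 of 5 WY-14643 libraries and in 1 of 5 vehicle libraries (replicate 2). The log2 ratio of Cpt1a to Cpt2 was 0.29 ± 0.21 with WY-14643 and -0.30 ± 0.38 with vehicle, a difference of 0.60 that was positive in 5 of 5 pairs. An exact two-sided permutation test over all divisions of the 10 libraries gave p = 0.0159, or 0.0238 adjusted over the 3 ratios examined. It treats the libraries as unpaired; exchange within the 5 matched pairs gave p = 0.0625 for each of the 3 ratios, the smallest that an exact two-sided test on 5 pairs allows, so no ratio could pass within pairs. The log2 ratio of Cpt1a to Slc25a20 was 0.72 ± 0.44 with WY-14643 and 0.42 ± 0.34 with vehicle, which did not pass (exact permutation p = 0.278, the same when adjusted). That test is unpaired, and this ratio too was higher with WY-14643 in 5 of 5 pairs.

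**Figure D2:**
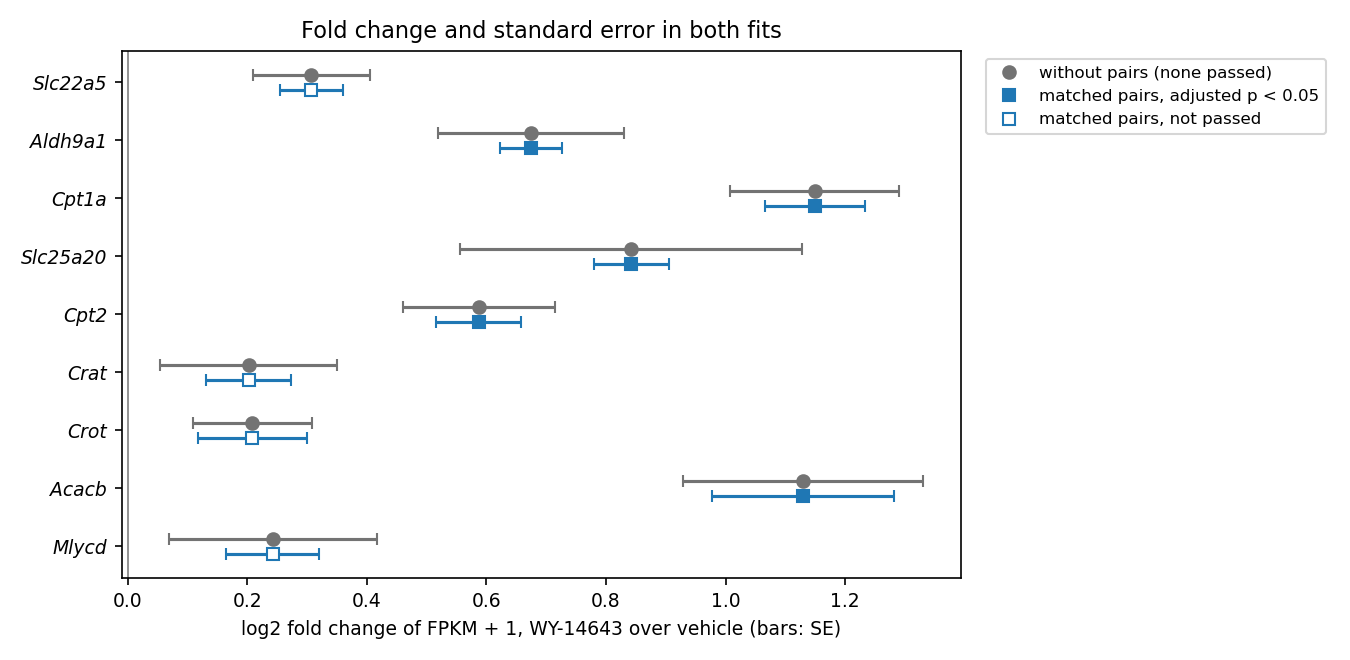
Log2 fold change of FPKM + 1, WY-14643 over vehicle (horizontal axis), for each gene, with bars of 1 standard error; grey circles are the fit without pairs, and blue squares the matched fit, filled where the adjusted p was under 0.05. The fold change is the same in both fits, and the bar of Slc25a20 shrinks most, with a standard error of 0.062 in the matched fit and 0.29 without pairs.

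Crat exchanges short acyl groups, mainly acetyl, between CoA and carnitine in mitochondria and peroxisomes (chr2:30290483-30305825, minus strand). Its level was 4.61, 5.99, 6.91, 6.13 and 7.65 FPKM in WY-14643 replicates 6 to 10, against 4.196, 5.59, 4.71, 4.91 and 7.23 FPKM in vehicle replicates 1 to 5. The groups overlapped widely. Its log2 fold change was 0.20, higher in 5 of 5 pairs, and passed in neither fit (adjusted p = 0.371 in the matched fit and nearly 1 without pairs).

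Crot, which moves medium-chain acyl groups made by peroxisomal oxidation onto carnitine (chr5:9016033-9047324, minus strand), was the one gene that did not go the same way in all pairs. It had 8.13, 10.2, 10.02, 10.1 and 10.1 FPKM in WY-14643 replicates 6 to 10 and 9.13, 7.84, 8.41, 6.85 and 9.18 FPKM in vehicle replicates 1 to 5. WY-14643 replicate 6 lay below its own matched vehicle library, with a ratio of 0.890, and the other 4 pairs had ratios of 1.097 to 1.47. The log2 fold change was 0.21 (adjusted p = 0.488 in the matched fit and nearly 1 without pairs), so Crot did not pass. Crat and Crot each overlap a gene on the other strand that had reads. Dolpp1 shares 59 bases with Crat, and the pseudogene Gm15610 lies within Crot over 195 bases, and such reads cannot be told apart without the strand setting.

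On the side of the brake, Acacb had the largest ratio of the 9 genes. It encodes the acetyl-CoA carboxylase anchored at the outer mitochondrial membrane, whose malonyl-CoA inhibits Cpt1a (chr5:114284596-114388822, plus strand). Its level was 2.01, 2.67, 1.60, 0.992 and 0.677 FPKM in WY-14643 replicates 6 to 10, against 0.0667, 0.315, 0.128, 0.0922 and 0.111 FPKM in vehicle replicates 1 to 5. The groups did not overlap, and vehicle replicate 2 stood above the other 4 vehicle libraries. Behind these values were 151 to 432 reads per library with WY-14643 and 11 to 88 with vehicle.

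Within pairs the ratio of Acacb was 30.2, 8.50, 12.5, 10.8 and 6.08, and the ratio of the group means was 11.2, or 16.0 without vehicle replicate 2. Acacb rose by 1.13 on the scale of log2(FPKM + 1) (SE 0.15, adjusted p = 0.0481 in the matched fit; SE 0.20, adjusted p = 0.198 without pairs). This size depends on the scale: it was 2.74 with a pseudocount of 0.1, 2.08 on TPM and 3.38 by voom on the reads, all without pairs. The pseudogene Gm13784 overlaps Acacb on the other strand over 750 bases and averaged 0.0243 FPKM with WY-14643 and 0 with vehicle. The matched call of Acacb was lost when any pair other than 10 and 5 was left out (adjusted p between 0.0818 and 0.205).

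The other acetyl-CoA carboxylase, the cytosolic Acaca that feeds fatty acid synthesis, had 6.65 ± 2.61 FPKM with WY-14643 and 6.43 ± 2.34 FPKM with vehicle, a log2 fold change of 0.031 (SD, n = 5 each; adjusted p = 0.8997 in the matched fit). Acacb accounted for 19.2% ± 6.87 of the summed carboxylase FPKM in WY-14643 libraries and for 2.39% ± 1.65 in vehicle libraries. The share was 11.4% to 29.9% with WY-14643 and 0.648% to 5.11% with vehicle, with no overlap. The exact two-sided permutation p was 0.00794, the smallest that 5 libraries against 5 can give, or 0.0238 adjusted over the 3 ratios.

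**Figure D3:**
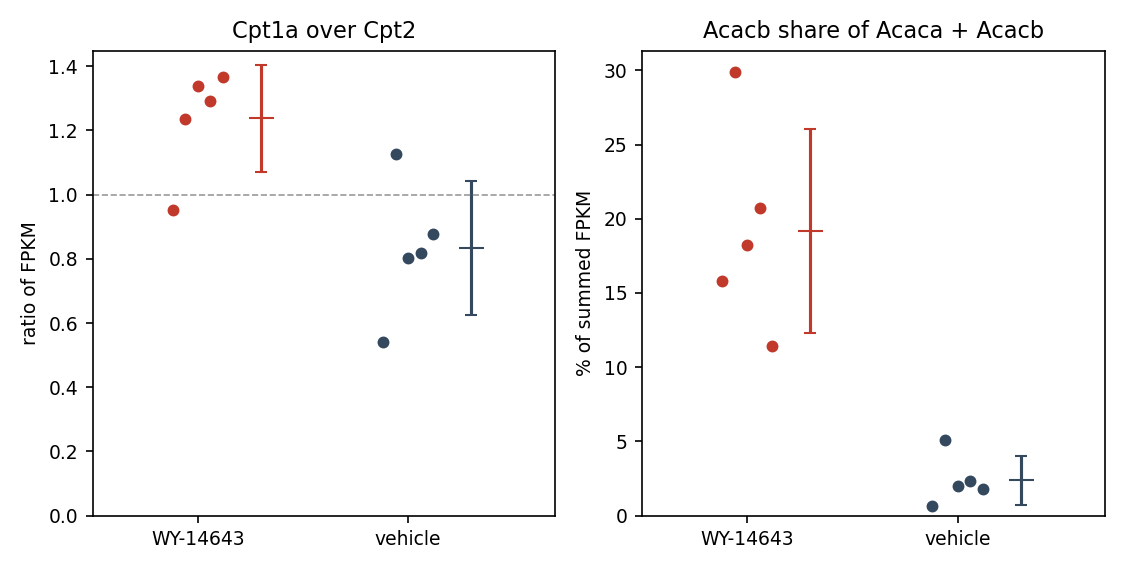
Left, ratio of Cpt1a to Cpt2 FPKM in each library (dashed line: equal levels); right, Acacb as a percentage of summed Acaca and Acacb FPKM; WY-14643 libraries are red and left, vehicle libraries dark and right, with mean ± SD beside them. In 4 of 5 WY-14643 libraries and 1 of 5 vehicle libraries Cpt1a was above Cpt2, and the Acacb share was 11.4% to 29.9% with WY-14643 against 0.648% to 5.11% with vehicle.

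Mlycd, the malonyl-CoA decarboxylase that releases the brake (chr8:120121617-120137841, plus strand), had 6.22, 8.95, 10.001, 8.50 and 7.54 FPKM in WY-14643 replicates 6 to 10. It had 4.07, 8.34, 7.62, 7.03 and 7.43 FPKM in vehicle replicates 1 to 5. The groups overlapped, and the pair ratios ran from 1.01 in replicates 10 and 5 to 1.53 in replicates 6 and 1. The log2 fold change of 0.24 passed in neither fit (adjusted p = 0.321 in the matched fit and nearly 1 without pairs).

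Across matched pairs, 8 of 9 genes were higher with WY-14643 in all 5, where 5.63% of all genes were. The median log2 difference of the 9 genes was 0.66, 0.69, 0.55, 0.64 and 0.30 in the pairs of WY-14643 replicates 6, 7, 8, 9 and 10. The pair of WY-14643 replicate 10 and vehicle replicate 5 was the lowest, and it gave the smallest difference for 7 of the 9 genes, the exceptions being Slc22a5 and Crot. Over all genes the median difference of a pair lay between -0.0084 and 0.0047.

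**Figure D4:**
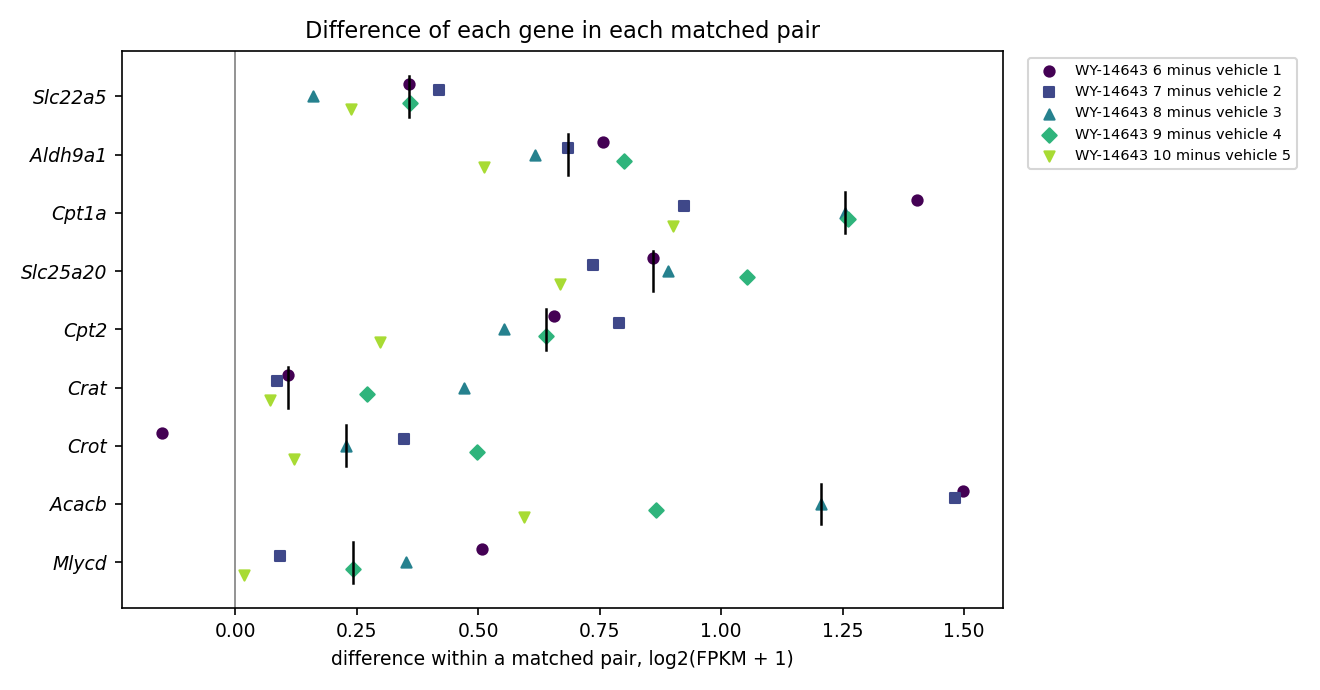
Difference of log2(FPKM + 1) within each matched pair, WY-14643 minus vehicle (horizontal axis), for each gene; symbols mark the 5 pairs and black ticks the median over pairs. Crot in the pair of replicates 6 and 1 is the single point below 0, and Acacb spans 0.59 to 1.499.

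The order of levels in WY-14643 libraries was Aldh9a1, Cpt1a, Cpt2, Slc25a20, Slc22a5, Crot, Mlycd, Crat and Acacb. In vehicle libraries Cpt2 came before Cpt1a and Crot before Slc22a5. Several neighbours changed places between libraries: with WY-14643, Cpt2 was above Slc25a20 and Slc22a5 above Crot in 3 of 5 libraries each. With vehicle, Slc25a20 was above Crot in 2 of 5 libraries, and Crot above Slc22a5 and Slc22a5 above Mlycd in 3 of 5 each.

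The genes on either side of the shuttle were described from lists chosen by function. Upstream, where acyl-CoA synthetases activate fatty acids, 0 of 6 tested genes were called in either fit, with a median log2 fold change of 0.080. The nearest to a call was Acsl3, with 92.6 ± 26.4 FPKM with WY-14643 and 60.6 ± 19.996 FPKM with vehicle (log2 fold change 0.61, adjusted p = 0.0540 in the matched fit). Acsl5, at 83.4 ± 8.68 FPKM with WY-14643 and 88.8 ± 10.1 FPKM with vehicle, was lower in 5 of 5 pairs but did not pass (adjusted p = 0.499 in the matched fit).

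Downstream, in β-oxidation of the matrix, 3 of 16 tested genes rose in the matched fit, where 0.287% of all genes passed as higher. None of the 16 fell, where 0.0294% of all genes passed as lower. In all 5 pairs 12 of the 16 were higher, against 5.63% of all genes. Without regard to pairs, 7 of the 16 were higher with no overlap between the groups, against 0.243% of all genes. The thiolase Acaa2 rose by 0.84, to 93.3 ± 18.7 FPKM with WY-14643 against 51.9 ± 11.1 FPKM with vehicle (adjusted p = 0.0202 in the matched fit). The long-chain dehydrogenase Acadl rose by 0.64 (adjusted p = 0.0221) and the enoyl-CoA isomerase Eci2 by 0.60 (adjusted p = 0.0128), both in the matched fit. Hadhb, a subunit of the trifunctional protein, had 15.2 ± 2.70 FPKM with WY-14643 and 9.52 ± 1.81 FPKM with vehicle and did not pass (adjusted p = 0.0536 in the matched fit). The median log2 fold change of the 16 genes was 0.34.

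Around malonyl-CoA, 0 calls in a short list again say little, since the matched fit passed 0.287% of all genes as higher and 0.0294% as lower. For its supply and use, 0 of 8 tested genes were called in either fit, with a median of 0.12. They include Mid1ip1, which promotes carboxylase assembly (88.2 ± 8.22 FPKM with WY-14643 and 78.3 ± 8.25 FPKM with vehicle, adjusted p = 0.210 in the matched fit), and Fasn, the fatty acid synthase that consumes malonyl-CoA (38.8 ± 10.8 and 34.8 ± 9.14 FPKM in the same order, adjusted p = 0.380). The kinase AMPK inhibits both carboxylases by phosphorylation. For its subunits and its activating kinase, 0 of 7 tested genes were called, with a median of -0.019, and the same shares over all genes apply. A list of PPAR receptors and genes known to answer to PPARα agonists had 9 tested genes. Of these, 1 was called higher in the matched fit, where 0.287% of all genes were. It was Ehhadh, the bifunctional enzyme of peroxisomal oxidation (5.15 ± 1.35 FPKM with WY-14643 and 3.07 ± 0.683 FPKM with vehicle, adjusted p = 0.0428). The median log2 fold change of the list was 0.53, close to the 0.59 of the 9 shuttle and brake genes.

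**Figure D5:**
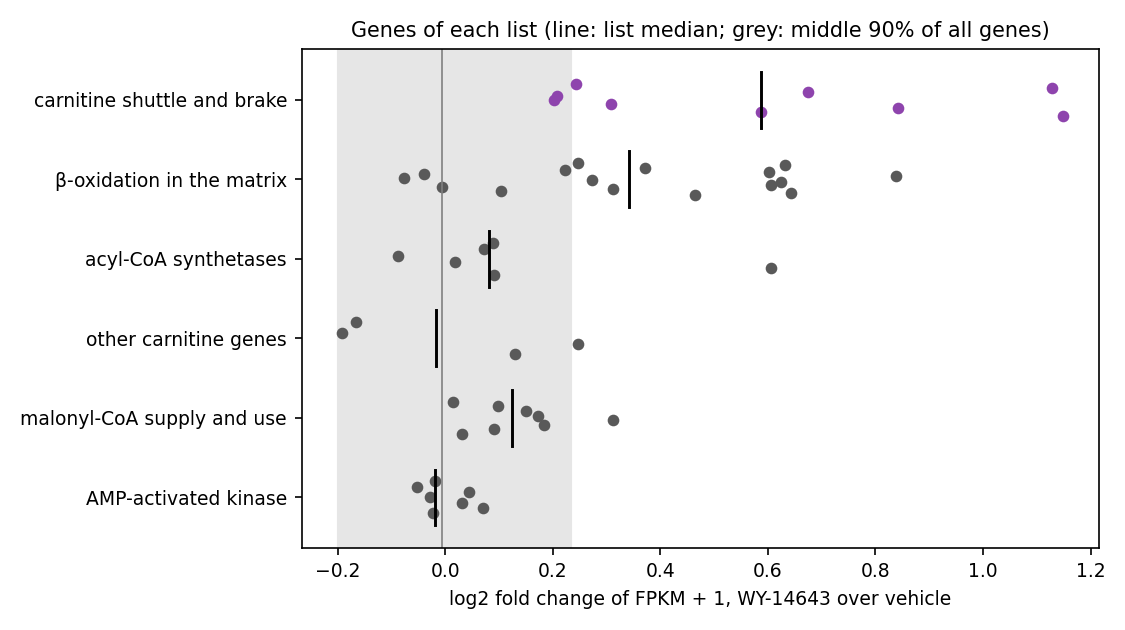
Log2 fold change of FPKM + 1, WY-14643 over vehicle (horizontal axis), of every tested gene of 6 groups (points) with the list median (black line); the grey band holds the middle 90% of all 13607 genes, from -0.20 to 0.23. The carnitine shuttle and brake genes have a median of 0.59 and β-oxidation genes of 0.34, while the other 4 lists plotted have medians of -0.019 to 0.12; the list of PPAR receptors and agonist-responsive genes, not plotted, has a median of 0.53.

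Promoter sequences are shown for Slc25a20 and Aldh9a1, which rose and whose start region holds a near match to the PPAR response element. That element is a pair of AGGTCA half-sites separated by 1 base, AGGTCANAGGTCA. Cpt1a, which also rose, is shown with a half-site only, and its best match to the pair had 4 mismatches of 12. RefSeq promoters of GRCm38.p6, from 250 bases before to 50 after the start, were matched for 8 of the 9 genes. Both strands were searched, and a half-site inside a pair counts under both searches. Acacb also holds a half-site, which is not printed. The capitals mark the half-site, read from the other strand, in Cpt1a, and matches to the pair with 2 mismatches of 12 in Slc25a20 and Aldh9a1.
Cpt1a: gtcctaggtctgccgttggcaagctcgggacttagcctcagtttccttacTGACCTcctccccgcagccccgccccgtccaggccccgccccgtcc
Slc25a20: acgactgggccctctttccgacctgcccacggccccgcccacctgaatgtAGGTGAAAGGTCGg
Aldh9a1: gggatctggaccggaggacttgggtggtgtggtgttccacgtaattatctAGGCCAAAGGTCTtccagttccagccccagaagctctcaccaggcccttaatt

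The Cpt1a stretch is chr19:3323157-3323252, with the half-site at positions -94 to -89 from the start. The Slc25a20 stretch is chr9:108662092-108662155, with the match at bases 7 to 19 after the start. The Aldh9a1 stretch is chr1:167349797-167349899, with the match at positions -144 to -132. All 3 stretches are on the plus strand of GRCm38.p6, an earlier build than that of the gene coordinates. A half-site was found in 2 of the 8 promoters (Cpt1a and Acacb), against 16.3% of 32851 promoters. A pair with at most 2 mismatches was found in 2 of the 8 (Slc25a20 and Aldh9a1), against 3.86% of all. The remaining 4 promoters, those of Cpt2, Slc22a5, Crot and Mlycd, held neither within this window.

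Likeness of pattern was measured as the mean absolute difference of log2(FPKM + 1) over the 10 libraries, each gene centred on its own mean, among 11040 protein-coding genes tested. The 5 genes nearest to Cpt1a were Acaa2 (0.17), Abhd6 (0.18), Klf11 (0.21), Hsdl2 (0.21) and Sgk2 (0.22), where the median gene was at 0.59. The 5 nearest to Acacb were Abhd6 (0.20), Apol10a (0.21), Klf11 (0.22), Cpt1a (0.22) and Aldh9a1 (0.23), with the median gene again at 0.59. All points share the same 10 libraries, and the measure is a description.

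Depth and cell makeup may bear on the values above, which was not tested. Between 16136440 and 22209003 reads were assigned to genes in WY-14643 libraries, and between 15618244 and 29271304 in vehicle libraries. The 8 epithelial markers summed to 3795 to 7322 FPKM with WY-14643 and 4065 to 6889 FPKM with vehicle, while all 6 stromal, 3 endothelial and 3 muscle markers stayed under 1 FPKM in every library. Among immune markers, Cd68 was at 1.99 to 6.35 FPKM with WY-14643 and 2.30 to 5.23 FPKM with vehicle, Cd3e and Lyz2 were at 0, and Ptprc was at most 0.0223 FPKM. Of 7 markers of absorptive colonocytes, Car4 was at 0 and Aqp8 under 1 FPKM in all libraries. The summed colonocyte markers were 164 to 1950 FPKM with WY-14643 and 140 to 1128 FPKM with vehicle, higher with WY-14643 in 4 of 5 pairs. Most of the highest sum was Car1 (1626 of 1950 FPKM in WY-14643 replicate 9). Slc26a3, Car1 and Krt20 were each higher in 4 of 5 pairs, Ceacam1 in 3, Aqp8 in 2 and Slc9a3 in 1. In the remaining pair, replicates 7 and 2, that sum was 1061 FPKM with WY-14643 and 1128 FPKM with vehicle. By summed FPKM, goblet markers were higher with WY-14643 in 2 of 5 pairs, stem cell markers in 1 of 5 and proliferation markers in 2 of 5. The goblet markers Muc2 (4.597 ± 2.42 FPKM with WY-14643 and 6.28 ± 3.33 FPKM with vehicle) and Clca1 (2.64 ± 2.28 and 3.61 ± 3.11 FPKM in the same order) and the stem cell marker Lgr5 (3.79 ± 0.554 and 4.79 ± 0.852 FPKM) were lower in 5 of 5 pairs, but none was called (SD, n = 5 each). Other markers of the same lists went the other way. The goblet marker Fcgbp (2.69 ± 1.003 and 2.49 ± 0.713 FPKM) was higher in 4 of 5 pairs. So was the stem cell marker Ascl2 (2.01 ± 0.892 and 1.53 ± 0.747 FPKM), and neither was called. The part of these cell types in the differences was not tested. In bulk RNA, more cells of a type and more RNA per cell cannot be told apart.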

How the data were processed

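RNA of 10 libraries, 5 with WY-14643 and 5 with vehicle, was analysed from a table of 56748 genes. The authors deposited FPKM values. According to the submitters' processing notes the tools were HISAT2 2.0.5 and featureCounts 1.5.0-p3 with build mm39, on which the gene coordinates given here lie. Per the labels' protocols, RNA was selected with poly-T beads, and the protocol covers stranded and unstranded libraries. No source used here gives the strand setting, the annotation release or the scaling of libraries.

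FPKM multiplied by gene length was divided by the smallest non-zero such value of each library, which was assumed to be 1 read. The result was whole reads for 100% of values (tolerance 0.01), used for depth and for a voom alternative. Groups follow the treatment labels. The filter kept 13607 genes (24.0%) that averaged 0.5 FPKM or more, and these entered limma 3.58.1 in R 4.3.3 on log2(FPKM + 1), with a mean-variance trend, robust priors and Benjamini-Hochberg adjustment at 0.05. The planned fit has no pairs; the matched fit adds the pair as a block. Deviations from the group means correlated across genes at 0.423 to 0.782 in matched libraries and at most 0.0602 in unmatched libraries of different groups. Ratios were tested by exact two-sided permutation over all divisions of the libraries. Plots used matplotlib 3.10.9 (Python 3.11.15). The fits were also run on simulated data built with the same matching, so that run cannot test the matching.

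The genes, lists, ratios and the matching were chosen with earlier results of these data known. Named genes are the 9 measured of the 10, up to 4 with the smallest matched p in each list (some of them given only by count), 5 others set by name, and the 5 nearest to Cpt1a and to Acacb. Alternatives were another pseudocount, other filters, TPM, library weights, voom, pairs and leaving out replicates or pairs. Tmlhe was not analysed here, and the promoters of Crat and Tmlhe were not used.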

Additional observations from a re-analysis of the deposited data

Results flagged for a closer look

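A total of 24 groups of 5 libraries were examined for a library far from the rest, and 3 were flagged, where chance flags about 5% of groups. Crot in WY-14643 replicate 6 was at 8.13 FPKM while the nearest of the other 4 WY-14643 libraries was at 10.02 FPKM, a gap of 0.896 of the group's range. Acacb in vehicle replicate 2 was at 0.315 FPKM and the next vehicle library at 0.128 FPKM, a gap of 0.753 of the range. The log2 ratio of Cpt1a to Cpt2 in WY-14643 replicate 6 was -0.073 and the nearest other WY-14643 library was at 0.31, a gap of 0.724 of the range. The causes were not tested.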

How the results depend on the processing

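All 9 genes kept a higher mean with WY-14643 in every alternative run, 8 of 8 where a mean FPKM of at least 1 removed Acacb. Without pairs, 0 genes passed; library weights gave 18 higher and 3 lower, with 2 of the 9 genes (Cpt1a, adjusted p = 0.00404, and Acacb, 0.0175), and the matched replicate block gave 39 higher and 4 lower, with 5 of the 9. Leaving out 1 library without pairs gave 0 to 2 genes higher and 0 lower, with 0 to 1 of the 9 genes (Cpt1a, without vehicle replicate 2). In the matched fit, leaving out 1 pair gave 2 to 30 genes higher and 0 to 6 lower, with 0 to 5 of the 9. No filter (28804 genes tested) gave 2 higher, 0 lower and 0 of the 9, and voom gave 190 higher and 49 lower, with 6 of the 9, adding Slc22a5 (adjusted p = 0.0223). These alternatives of the matched fit other than leaving out pairs were chosen after seeing the data. The log2 ratio of Cpt1a to Cpt2 differed by 0.45 to 0.72 over 11 alternatives that kept the libraries unpaired, with an exact permutation p of 0.0159 to 0.0397. The Acacb share differed by 11.6 to 18.8 percentage points; its groups do not overlap, so its p says nothing about stability. Exchange within pairs, added after seeing the data, gave an exact permutation p of 0.0625 for each ratio. Acacb rests on 11 to 88 reads per vehicle library. The causes of the differences between settings were not tested.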

Other observations

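Mlycd removes the product of Acacb, and the ratio of Mlycd to Acacb FPKM was 6.48 ± 3.44 in WY-14643 libraries and 58.0 ± 18.8 in vehicle libraries (SD, n = 5 each). It was 3.09 to 11.1 with WY-14643 and 26.5 to 76.3 with vehicle, with no overlap and no test of its own. Acaca and Acacb together had 8.24 ± 3.10 FPKM with WY-14643 and 6.57 ± 2.32 FPKM with vehicle (SD, n = 5 each), so Acacb remained the lesser carboxylase in every library. Library weights, which limma sets from how closely a library follows its group, were highest for WY-14643 replicate 8 (3.90) and vehicle replicate 3 (4.35), the matched pair without which 0 of the 9 genes passed.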
